A study of Homo sapiens with 8 samples.

Results

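The noncoding RNA probes on the ST486 Ago2-RIP-Chip arrays are the probes that the array assigns to a RefSeq accession beginning with NR_, the prefix for transcripts without a protein product. They were chosen by this prefix alone. No measured value entered the rule, though earlier results of these data were known when it was set. Of the 41000 probes without controls, 251 carry such an accession, and they represent 208 of 33291 array names. The ST486 line derives from a Burkitt lymphoma, a tumour of germinal centre B cells. The cells had been infected with the retroviral vector MXW-PGK-IRES-GFP, either empty (EV-ST486) or with the miR-155 precursor and flanking genomic sequence (miR-155-ST486). The paper describes sorting of GFP-positive cells for checking the miRNA overexpression, and does not say whether the cells for the arrays were sorted. Both groups were given the vector with GFP, and they differ in the miR-155 insert. RNA of the cleared lysate, the total (T) fraction, and RNA pulled down from it with an antibody against Ago2, the IP fraction, gave 4 RNA samples, 1 per condition. Each was labelled with Cy3 and with Cy5, and both fractions of a vector shared an array, once in each dye orientation, on 4 arrays in all. The labellings are technical repeats, so no test between conditions is possible, no p-value is given, and the spread between labellings covers the error of labelling and hybridization only. The arrays of the vectors lie on different slides (2 slides, 0 with both vectors), so slide and vector cannot be told apart, whereas both fractions of a vector share theirs.

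Of 7 B cell marker genes on the array, 6 were detected in every labelling of total RNA and PAX5 in none. The 4 T cell markers were detected in no total labelling, and their summed normalized signal was between 98.5 and 132, against 25134 to 28385 for the B cell markers. Of 3 myeloid markers, CSF1R and LYZ were detected in no total labelling and CD14 in 5 of the 8 channels, and the summed signal lay between 62.3 and 126. KRT8 was detected in all 8 channels with 1 probe and in 0 with the other, and EPCAM in none, with a summed signal between 516 and 924 over both genes. In such bulk RNA, fewer cells of a type and less RNA per cell cannot be told apart.

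Ago2 holds mature miRNAs and brings them to transcripts with a match to the seed, bases 2 to 8 of the miRNA, and RNA bound by such complexes is recovered in the IP fraction. Noncoding transcripts take part in this pathway in different ways. Some are hosts that are cut into miRNAs or snoRNAs, some are long RNAs that can themselves be bound, and transcribed pseudogenes can share the sequence of a coding gene and with it its miRNA sites. The host gene of miR-155, MIR155HG (also known as BIC), is transcribed in activated B cells and makes miR-155, while small structural RNAs without a poly(A) tail are poorly copied by a labelling primed with oligo(dT). Mature miRNAs that RefSeq (GRCh38.p14) places within MIR155HG, MEG3 and H19 are given here with their seed in capitals, because these hosts are described next: both arms of miR-155 on the plus strand of chromosome 21 within MIR155HG, miR-770-5p on the plus strand of chromosome 14 within MEG3, and both arms of miR-675 on the minus strand of chromosome 11 within H19.
hsa-miR-155-5p (chr21:25573983-25574006): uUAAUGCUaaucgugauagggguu
hsa-miR-155-3p (chr21:25574022-25574043): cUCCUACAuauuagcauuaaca
hsa-miR-770-5p (chr14:100852409-100852431): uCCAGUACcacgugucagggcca
hsa-miR-675-5p (chr11:1996800-1996822): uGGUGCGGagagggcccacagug
hsa-miR-675-3p (chr11:1996768-1996787): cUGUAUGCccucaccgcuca
No seed was shared among these 5 miRNAs. Of the 2545 mature miRNAs in the table, 1 each holds the seed of miR-155-5p and that of miR-155-3p, namely these miRNAs themselves. The seed of miR-770-5p is shared with hsa-miR-4712-5p and that of miR-675-5p with hsa-miR-4466.

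The miR-155 host gene was seen in miR-155-ST486 cells only. Its single probe (NR_001458) was detected, that is, it passed both of the scanner's flags for signal over background, in both labellings of the miR-155 total fraction and in neither labelling of the EV total fraction. Its normalized signal in total RNA was 11.4 (Cy3) and 19.2 (Cy5) for EV and 121 (Cy3) and 107 (Cy5) for miR-155. Both labellings of miR-155-ST486 cells lay above both of EV-ST486 cells. As the probe was not detected in EV-ST486 cells, its level there was not measured. The dimmest probe flagged as well above background was taken as a floor, which is no upper limit for an undetected probe. In the miR-155 IP Cy5 labelling the MIR155HG probe was itself undetected at 85.3, where the dimmest detected probe was at 39.7. On the quantile-normalized scale the total signal of miR-155-ST486 cells was 6.65-fold the floor (means 114 and 14.8, floor 17.2). After normexp correction, loess and Aquantile, a scale compressed at the dim end by its offset, it was 1.40-fold the EV mean (means 87.3 and 62.5). In IP RNA the signal was 12.3 (Cy3) and 13.1 (Cy5) for EV, neither detected, and 49.8 (Cy3) and 85.3 (Cy5) for miR-155, of which the Cy3 labelling was detected. The corresponding values in IP RNA were 2.14-fold the floor and 1.37-fold the EV mean. The miR-155 mean behind the 2.14 includes the undetected Cy5 labelling. Within miR-155-ST486 cells the IP/T ratio, the IP signal over the total signal, was 0.464 in the orientation in which both were detected, with the IP RNA in Cy3, and no ratio is given for the other. Of the 251 noncoding RNA probes, MIR155HG was the only one detected in both labellings of miR-155 total RNA and in none of EV total RNA, and 52 of all 41000 probes (0.127%) showed this pattern. The opposite pattern was met by 0 noncoding RNA probes and 15 probes in all. The construct carries genomic sequence around the miR-155 precursor, and whether the probe lies within that insert was not tested.

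**Figure D1:**
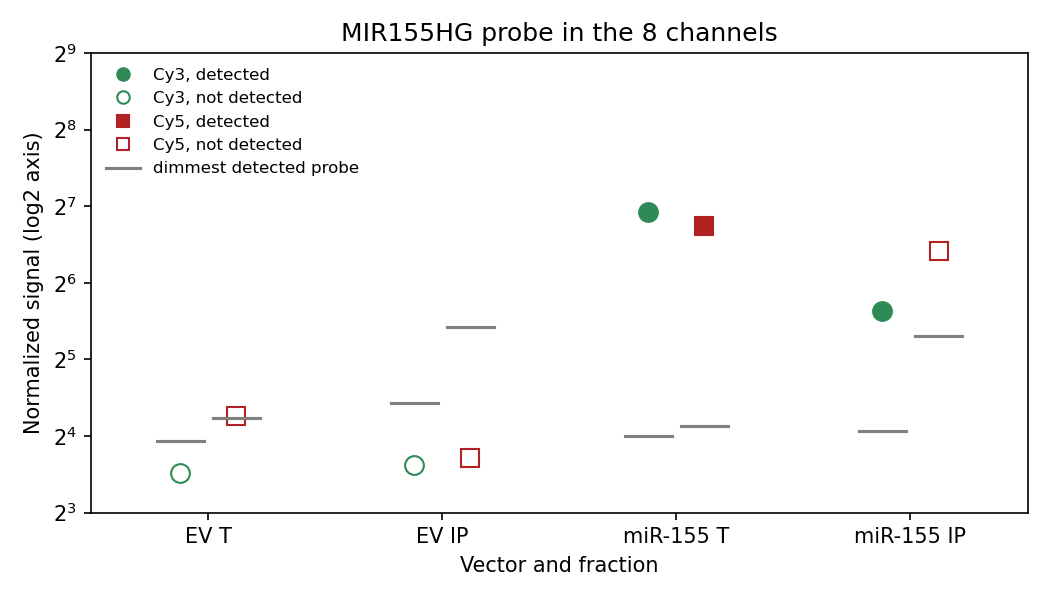
Normalized signal of the MIR155HG probe (log2 axis) in the 4 RNA samples, with Cy3 labellings as circles and Cy5 labellings as squares, filled where the probe was detected, and a grey line at the dimmest probe detected in that channel. The miR-155 total labellings sit at 121 and 107, and the EV labellings of both fractions between 11.4 and 19.2.

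Fewer noncoding RNA probes than mRNA probes were detected in every channel. In total RNA of EV-ST486 cells 125 of the 251 probes (49.8%) gave a signal with Cy3 and 84 (33.5%) with Cy5, and in the EV IP fraction 111 (44.2%) and 80 (31.9%). Total RNA of miR-155-ST486 cells gave 125 (49.8%) with Cy3 and 111 (44.2%) with Cy5, and the miR-155 IP fraction 117 (46.6%) and 84 (33.5%). The shares of the 24823 probes with an mRNA accession (NM_) lay between 42.3% and 62.1%, and those of all probes between 34.4% and 54.1%. Cy3 detected more probes than Cy5 in each sample, and the miR-155 total Cy5 labelling detected more than the other Cy5 labellings did in all 3 sets. In both labellings of a sample 82 noncoding RNA probes were detected for EV total, 80 for EV IP, 110 for miR-155 total and 84 for miR-155 IP RNA. No channel detected 113 of the noncoding RNA probes (45.0%, against 34.6% of mRNA probes), 74 (29.5%, against 38.7%) were detected in all 8 channels, 28 in 1 to 3 channels and 110 in at least 4. The labellings of a sample were over 2-fold apart for 22 of these 110. The remaining 88 probes (35.1%, against 45.9% of mRNA probes and 37.9% of all probes), for 75 accessions, were retained for ratios, and each was detected in at least 1 labelling of all 4 samples.

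**Figure D2:**
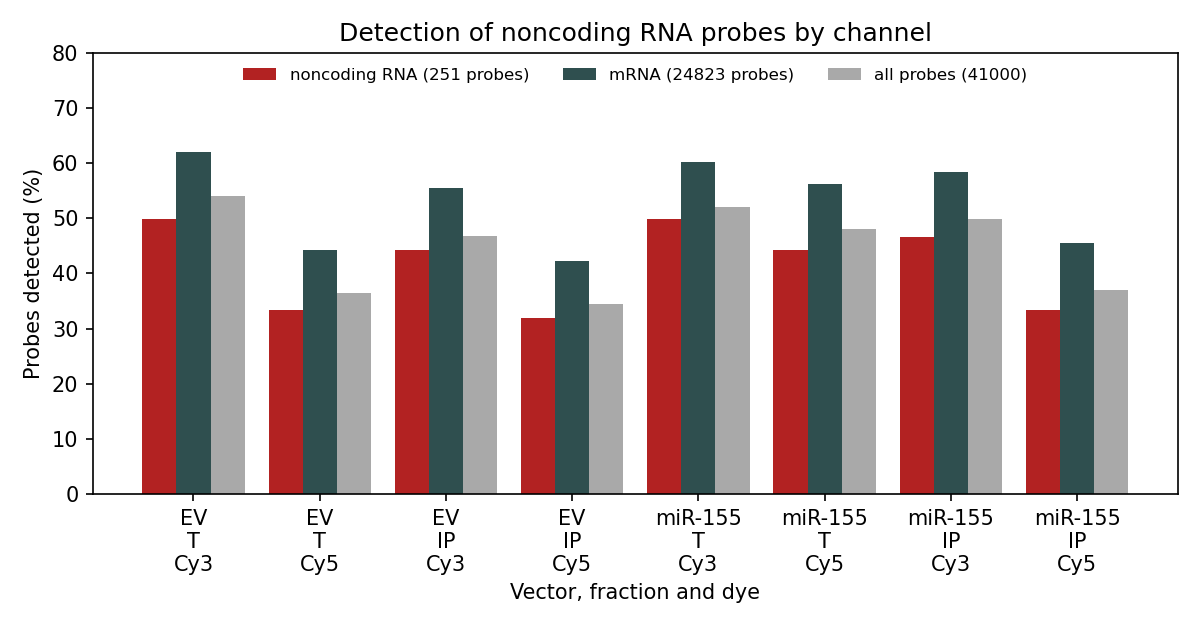
Percent of probes detected in each of the 8 channels (vector, fraction and dye) for the 251 noncoding RNA probes, the 24823 mRNA probes and all 41000 probes. The noncoding RNA bar is below the mRNA bar in every channel, between 31.9% and 49.8% against 42.3% to 62.1%.

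The share of probes detected varied between the classes that the gene table gives these transcripts. Pseudogenes made up 137 of the 251 probes, of which 76 were detected in at least 1 channel and 46 were retained. The 5 snoRNA host genes, transcripts whose introns hold snoRNAs, were all detected and all retained. Of 47 other long noncoding RNA probes 18 were detected and 9 retained, and of 8 probes for antisense or overlapping transcripts 3 and 2. The 4 small structural RNAs gave 3 detected and 2 retained probes. Accessions absent from the gene table, named here by their NR_ number, accounted for 45 probes, 31 of them detected and 24 retained. MIR155HG, the only transcript classed as a miRNA host gene, both intergenic RNAs and the 2 probes now annotated as protein-coding gave no retained probe. MEG3, PVT1 and H19, which also hold miRNAs, were counted with the other long noncoding RNAs.

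The retained noncoding RNA probes had a lower median IP/T ratio than all retained probes. The median log2 IP/T was -0.35 in EV and -0.43 in miR-155 cells, against -0.13 and -0.16 for 11382 mRNA probes and -0.15 and -0.18 for all 15529 retained probes. In EV-ST486 cells this order turned round with normexp correction and high local backgrounds replaced, where the noncoding median lay 0.022 above that of all probes. In EV-ST486 cells IP/T was 2 or more for 10 of the 88 probes, or 11.4%, beside 12.1% of all probes, and in miR-155-ST486 cells for 7, or 7.95%, beside 12.2%. A ratio of at most 0.5 was found for 18 probes (20.5%, beside 10.0%) in EV and for 12 (13.6%, beside 9.83%) in miR-155 cells. The share at or above 2 in EV-ST486 cells was near that of all probes, and the share at or below 0.5 was higher in both vectors. With normexp correction the numbers at or below 0.5 were 2 and 1 of 109 probes, and with high backgrounds replaced as well 11 and 5 of 106. By class, the 46 pseudogene probes had a median log2 IP/T of -0.57 in EV and -0.59 in miR-155 cells and held 14 of the 18 and 10 of the 12 probes at or below 0.5. The 24 probes of unmatched accessions had medians of -0.12 and -0.29, the 5 snoRNA host genes -0.50 and -0.49, and the 9 other long noncoding RNA probes 0.17 and 0.08.

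**Figure D3:**
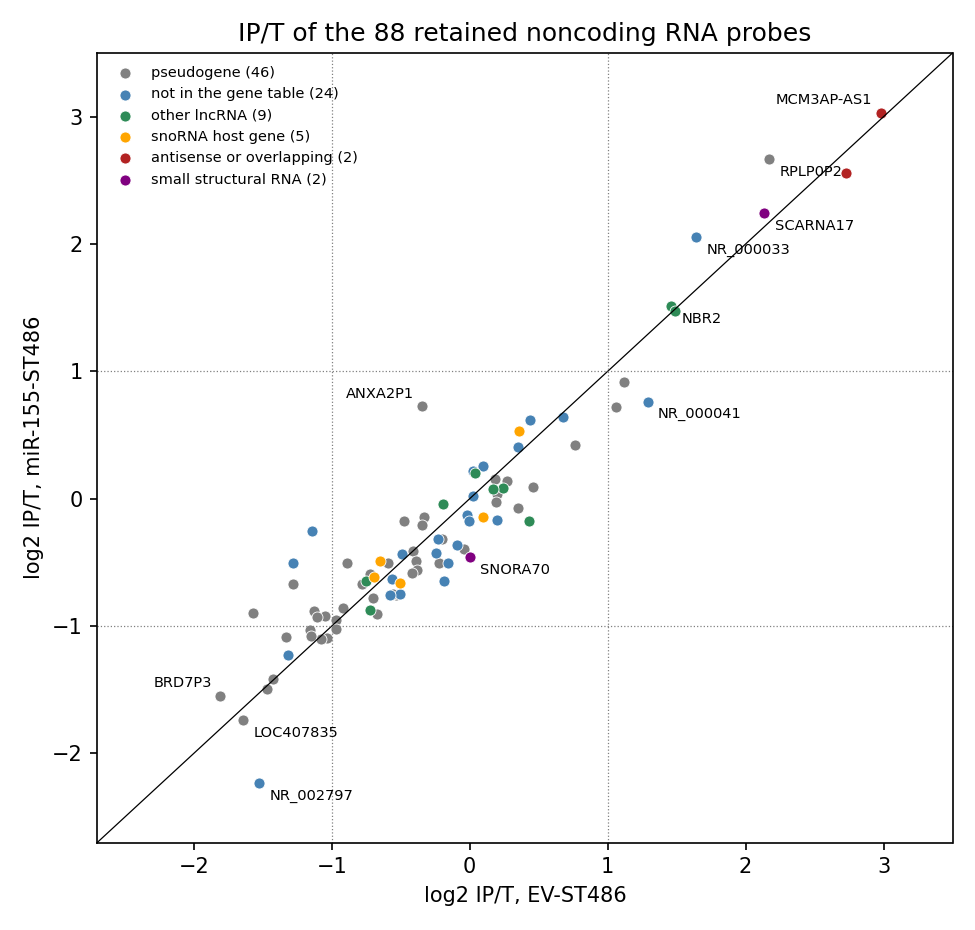
Log2 IP/T in EV-ST486 (x axis) against miR-155-ST486 cells (y axis) for the 88 retained noncoding RNA probes, coloured by class, with a solid line of equality and dotted lines at ratios of 2 and 0.5. Most probes lie along the line (r = 0.95), MCM3AP-AS1 is at the top with log2 values of 2.98 and 3.03, and ANXA2P1 stands above the line at -0.34 and 0.72.

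With the processing used here, the highest IP/T ratios belonged to MCM3AP-AS1 (NR_002776), an antisense transcript of the MCM3AP locus on chromosome 21. Its first probe had normalized signals, given as Cy3 and then Cy5, of 58.5 and 39.0 for EV total, 347 and 409 for EV IP, 58.0 and 69.1 for miR-155 total and 538 and 498 for miR-155 IP RNA. All 4 IP labellings were several times brighter than all 4 total labellings, of which EV total was detected in 1 of 2. The IP/T ratio was 7.88 in EV-ST486 cells (8.89 and 6.99 with the IP RNA in Cy3 and in Cy5) and 8.17 in miR-155-ST486 cells (7.78 and 8.59). The second probe was detected in all 8 channels, with signals of 425 and 273 for EV total, 1991 and 2569 for EV IP, 548 and 457 for miR-155 total and 2757 and 3146 for miR-155 IP RNA. It gave IP/T ratios of 6.64 and 5.89 in the same order, so both probes separated the fractions without overlap. Retained probes have labellings within 2-fold of each other. Within a vector, a ratio of at least 2 or at most 0.5 therefore fixes in advance that the fractions do not overlap. Here and below, such separation adds no evidence to those ratios. With normexp correction these ratios shrank to between 1.19 and 1.97 over both probes, and with high backgrounds replaced they were between 1.71 and 4.15. In both of these settings and without quantile normalization RPLP0P2, described next, had higher ratios than either probe.

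Next came RPLP0P2 (NR_002775), a pseudogene of RPLP0, which encodes a protein of the ribosomal stalk. Its signals were 94263 and 126230.0 for EV total, 517031 and 464800.0 for EV IP, 87628 and 75640.2 for miR-155 total and 517031 and 517031 for miR-155 IP RNA. The IP labellings lay above the total labellings throughout, and 3 of them shared the same value near the upper end of the quantile scale. IP/T was 4.49 in EV and 6.35 in miR-155 cells, and without quantile normalization it was 7.95 and 9.14. With normexp correction it was 5.58 and 6.28, and with high backgrounds replaced 5.25 and 5.43. SCARNA17 (NR_003003), a small Cajal body RNA of the kind that guides modification of spliceosomal RNAs, had signals of 596 and 515 for EV total, 3430.4 and 1728 for EV IP, 383 and 385 for miR-155 total and 1699 and 1949 for miR-155 IP RNA. All its IP labellings were above its total labellings, with IP/T ratios of 4.39 and 4.74, although the EV orientations spread from 2.90 to 6.66 and its labellings differed by more than 2-fold when quantile normalization was left out. With normexp correction the SCARNA17 ratios were below 2, at 1.56 and 1.46, and with high backgrounds replaced they were 2.77 and 2.71. Beside a probe detected in 3 channels and not retained, NBR2, a long noncoding RNA whose gene neighbours BRCA1, was read by 2 retained probes. The first had signals of 392 and 392 for EV total, 1182 and 987 for EV IP, 338 and 333 for miR-155 total and 1064 and 860.3 for miR-155 IP RNA, without overlap between the fractions. Its IP/T ratio was 2.76 in EV and 2.85 in miR-155 cells, and that of the second probe was 2.81 and 2.77. The second probe was detected in 6 channels, in 1 of 2 labellings of each EV fraction. By orientation it had 4.63 and 1.71 in EV and 3.59 and 2.14 in miR-155 cells. In both normexp settings the NBR2 ratios fell below 2, to between 1.06 and 1.75.

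Among the accessions without a symbol, NR_000033 had the highest ratio. Signals of 2486 and 3311 for EV total, 10524 and 7596 for EV IP, 2670.2 and 2465 for miR-155 total and 10974 and 10393 for miR-155 IP RNA gave IP/T ratios of 3.12 and 4.16, which stayed above 2 in both normexp settings, and its IP and total labellings did not overlap. NR_000041 had ratios of 2.44 in EV and 1.70 in miR-155 cells, but the miR-155 orientations were 0.950 and 3.03. The other probes at or above 2 in EV-ST486 cells were those of the pseudogenes RRN3P1 and TMED10P1, at 2.17 and 2.08, which were at 1.89 and 1.64 in miR-155-ST486 cells. With normexp correction RPLP0P2 and NR_000033 were the only noncoding RNA probes at or above 2 in either vector, and NR_000041 was at 1.25 in EV-ST486 cells.

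**Figure D4:**
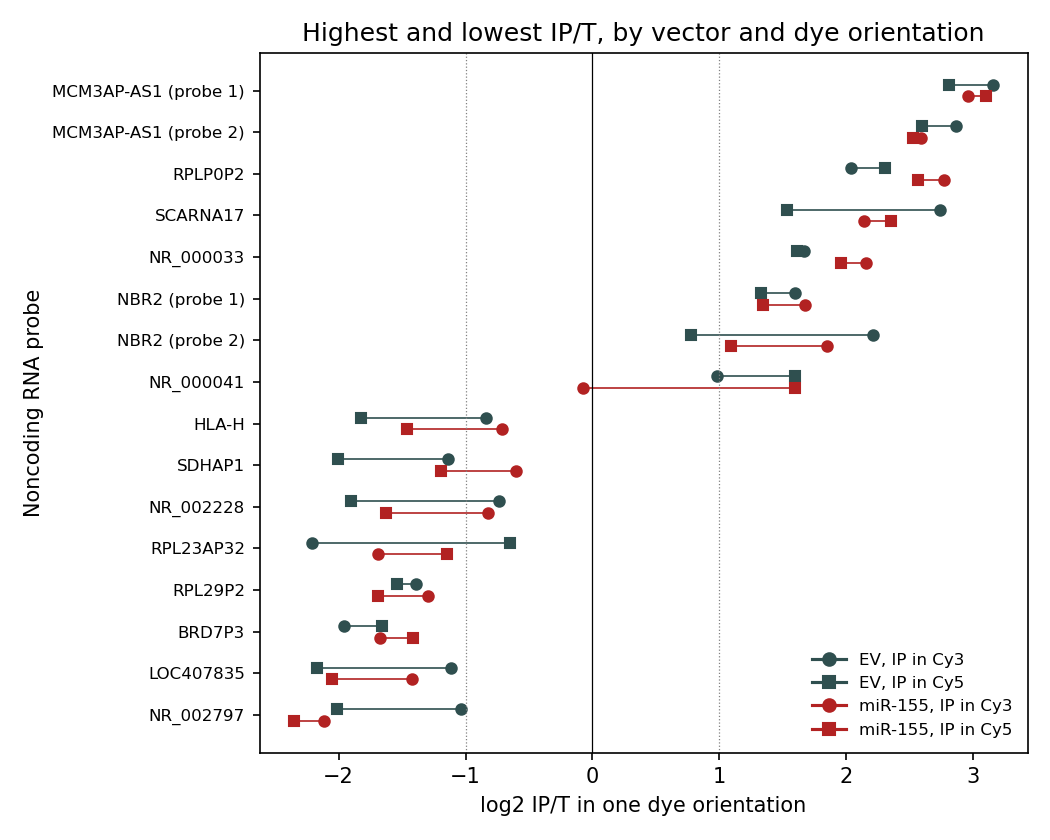
Log2 IP/T in each dye orientation (circles, IP RNA in Cy3, and squares, IP RNA in Cy5) and each vector for the 8 probes with the highest and the 8 with the lowest mean, with dotted lines at ratios of 2 and 0.5. Apart from NR_000041 in miR-155-ST486 cells (0.950 and 3.03 as ratios), each probe stays on its side of 0 in all orientations. For mean ratios of at least 2 or at most 0.5 this was fixed in advance by the 2-fold limit between labellings.

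At the other end were mostly pseudogenes. NR_002797, which has no symbol here, had the lowest mean log2 IP/T over both vectors. Its signals were 52473 and 44800.5 for EV total, 21833 and 13008 for EV IP, 45989 and 35795 for miR-155 total and 8275 and 9036 for miR-155 IP RNA. Every total labelling was brighter than every IP labelling, and IP/T was 0.348 in EV and 0.213 in miR-155 cells. In EV-ST486 cells alone BRD7P3 and the lower probes of LOC407835 and SDHAP1 had lower ratios, given below. A second probe of the same accession disagreed, with log2 IP/T of 0.03 and 0.22, so the values do not describe the accession as a whole. LOC407835 (NR_002144) had signals of 1785 and 1228 for EV total, 566 and 398 for EV IP, 1433 and 1109 for miR-155 total and 413 and 345 for miR-155 IP RNA on its lower probe, again with all total labellings above all IP labellings. The ratios were 0.320 and 0.299, and its second probe gave log2 values of -0.97 and -1.02. BRD7P3, a pseudogene of the bromodomain gene BRD7, had ratios of 0.286 and 0.343 from signals of 1058 and 1200.4 for EV total, 309.7 and 334 for EV IP, 947 and 963 for miR-155 total and 302 and 355 for miR-155 IP RNA. Its fractions did not overlap.

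A pair of the lowest probes carry the symbol of a ribosomal protein gene. RPL29P2 had IP/T ratios of 0.362 in EV and 0.355 in miR-155 cells, with orientations from 0.309 to 0.407. RPL23AP32 had ratios of 0.371 and 0.375, with EV orientations of 0.216 and 0.638. SDHAP1, a pseudogene of the succinate dehydrogenase subunit gene SDHA, had 0.336 and 0.537 on its lower probe, and HLA-H, a class I HLA pseudogene, had 0.397 and 0.470. NR_002228 had 0.401 and 0.428. With normexp correction only NR_002797, at 0.341, and HLA-H, at 0.493, were still at or below 0.5 in EV-ST486 cells, and only NR_002797, at 0.228, in miR-155-ST486 cells. The EV ratios of the other 6 lowest probes were then between 0.611 (RPL29P2) and 0.819 (NR_002228).

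The snoRNA host genes stayed within 2-fold of equal representation in both fractions. The gene table places snoRNA genes inside these hosts, 11 in GAS5 and 2 each in SNHG5 and SNHG11. Among the genes inside SNHG1 is SNORD22, itself a small RNA on the array. No count is given for SNHG10, which was put in this class by its symbol. GAS5 had signals of 15551 and 19920.3 for EV total, 10893 and 10828 for EV IP, 14167 and 14434 for miR-155 total and 9541 and 9147 for miR-155 IP RNA, with every total labelling above every IP labelling. Its IP/T ratio was 0.617 in EV and 0.653 in miR-155 cells. SNHG1 went the other way, with signals of 9324 and 10516 for EV total, 12302 and 13096 for EV IP, 9837 and 10191 for miR-155 total and 14280.0 and 14710.1 for miR-155 IP RNA and ratios of 1.28 and 1.45, again without overlap of the fractions. SNHG5 was near equality at 1.07 and 0.907, while SNHG10 was at 0.706 and 0.634 and SNHG11 at 0.638 and 0.713. SNORD22 was detected in 5 channels and differed by more than 2-fold between labellings, so no ratio is given.

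Of 24 well-known noncoding RNAs on a list, 5 had NR_ probes and 3 had a retained one. MALAT1, an abundant RNA of nuclear speckles, had 1 of 4 probes retained, with signals of 10774 and 9244 for EV total, 14589.6 and 8646 for EV IP, 6046 and 6278 for miR-155 total and 6791 and 6217 for miR-155 IP RNA. Its fractions overlapped and its IP/T ratio was 1.13 in EV and 1.05 in miR-155 cells. MEG3, the imprinted host of miR-770, had ratios of 1.18 and 1.06 on 1 of its 2 probes. PVT1, a neighbour of MYC and host of 4 miRNAs, had 0.593 and 0.639, with orientations from 0.474 to 0.742. H19 was detected in 0 channels, with signals between 9.48 and 13.7, and none of the 3 MIAT probes was retained.

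Pseudogene probes gave IP/T ratios near those of the coding gene in their symbol. Of the 46 retained pseudogene probes, 28 carry the symbol of a coding gene, and for 27 of these, covering 20 genes, the gene also had retained mRNA probes. The log2 IP/T of pseudogene and gene differed by a median of 0.36 in EV and 0.27 in miR-155 cells, and 25 and 26 of the 27 lay within 2-fold. How often unrelated probes lie as near was not tested. In EV-ST486 cells only 12.1% of all retained probes were at or above 2 and 10.0% at or below 0.5, so many unrelated pairs could also lie within 2-fold. Over the 27 probes, which share genes and arrays, the values correlated with r = 0.77 in EV and r = 0.86 in miR-155 cells. These values include the highest pair, RPLP0P2 and RPLP0, and r without it is not given. RPLP0P2, at log2 2.17 and 2.67, stood beside RPLP0, whose 3 probes had medians of 2.42 and 2.93. The low values of RPL29P2 (-1.47 and -1.49) and RPL23AP32 (-1.43 and -1.42) stood beside -1.08 and -1.11 for RPL29 and -1.05 and -0.98 for RPL23A. The widest gap was that of RRN3P1, at 1.12 and 0.92, with medians of -0.17 and -0.33 over 3 probes of RRN3, a factor of RNA polymerase I. The RRN3 probes themselves ran from -1.37 to 0.20 in EV and from -0.46 to 0.16 in miR-155 cells. The files hold no probe sequences, so whether a pseudogene probe also binds the mRNA of its coding gene was not tested.

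**Figure D5:**
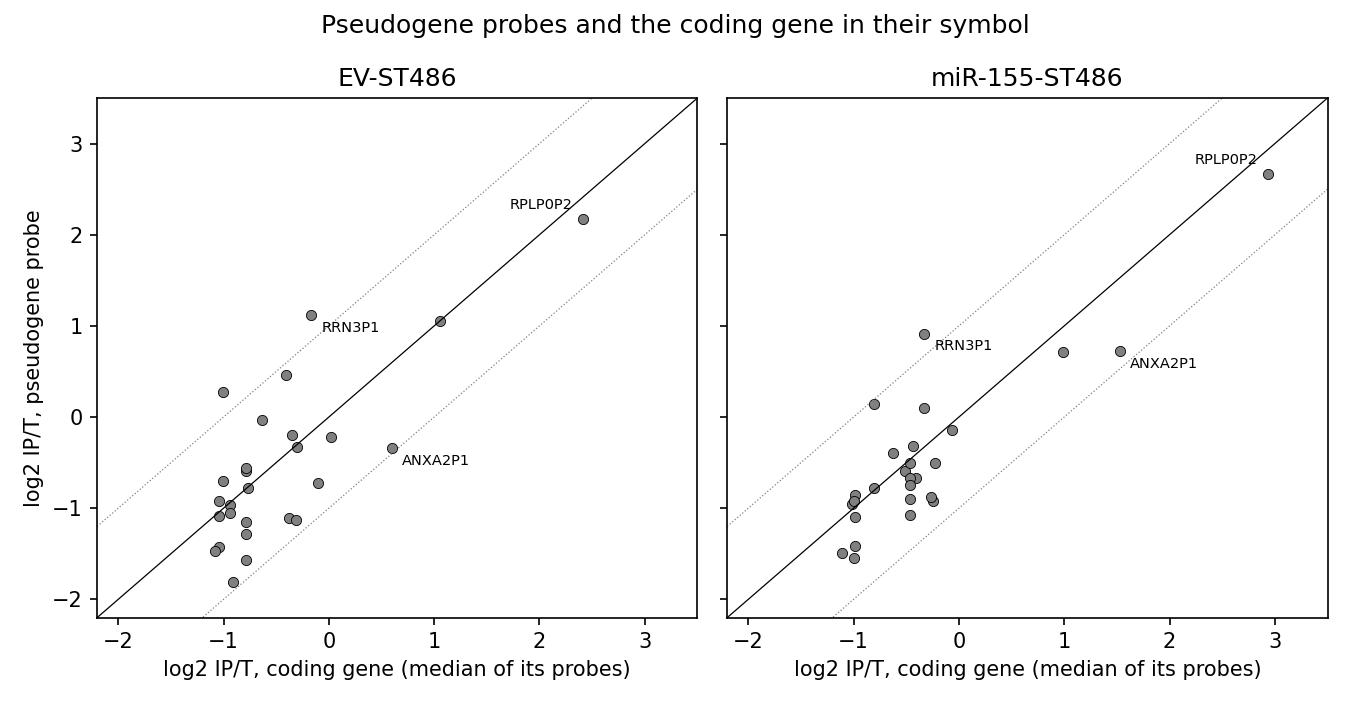
Log2 IP/T of 27 pseudogene probes (y axis) against the median log2 IP/T of the retained probes of the coding gene in their symbol (x axis), in EV-ST486 (left) and miR-155-ST486 cells (right), with a solid line of equality and dotted lines at a 2-fold difference. In each panel most points lie between the dotted lines (25 and 26 of 27), and RRN3P1 lies above them.

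Repeated readings of the same transcript and the same sample show the technical spread of these ratios only. This spread leaves out variation between cultures and IPs, and probes with labellings over 2-fold apart had already been removed. Of 11 accessions with several retained probes, 10 had all probes within 2-fold of each other in each vector, with a median log2 span of 0.29 in EV and 0.33 in miR-155 cells. NR_002797 was the exception, with spans of 1.55 and 2.45. Of 2258 accessions of any kind with several retained probes, 1855 in EV and 1974 in miR-155 cells had all within 2-fold, with median spans of 0.46 and 0.37. Between the dye orientations the log2 IP/T of the 88 probes differed by a median of 0.44 in EV and 0.33 in miR-155 cells (r = 0.79 and 0.87 across probes). For the miR-155/EV ratio, the IP/T of miR-155-ST486 over that of EV-ST486 cells, the orientations differed by a median of 0.32 on the log2 scale, their r was 0.07, and they had the same sign for 48 of the 88 probes (54.5%). The same measures over all 15529 probes were r = 0.82 and 0.91 for IP/T and r = 0.32 with 59.4% of the same sign for miR-155/EV.

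The IP/T ratios of the noncoding RNAs were similar with both vectors. The log2 IP/T of both vectors correlated across the 88 probes with r = 0.95, 81 probes lay on the same side of 0 in both, and 81 had a miR-155/EV ratio within 1.5-fold. Over all 15529 retained probes r was 0.93, 13581 lay on the same side and 14171 were within 1.5-fold, so the noncoding RNAs were close to the background. The median absolute log2 miR-155/EV, taken on the mean of both orientations, was 0.16 (0.20 over all probes). The median difference between single orientations was 0.32, a measure of another kind that cannot be set directly against it. The miR-155/EV ratio was 2 or more for 1 noncoding RNA probe, beside 1.15% of all probes, and 0.5 or less for 0, beside 0.477%. In the total fraction alone 0 of the 88 probes were at least 2-fold higher in miR-155-ST486 cells, beside 0.676% of all probes, and 0 were at least 2-fold lower, beside 0.380%. In the IP fraction 1 was at least 2-fold higher, beside 1.28%, and 3 at least 2-fold lower, beside 1.05%.

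The probe with a miR-155/EV ratio above 2 was that of ANXA2P1 (NR_001562), a chromosome 4 pseudogene of ANXA2, which encodes the membrane-binding protein annexin A2. Its signals were 658 and 727 for EV total, 591 and 504 for EV IP, 844 and 800.0 for miR-155 total and 1295 and 1424 for miR-155 IP RNA. The miR-155 IP labellings lay above all 6 others, and the EV IP labellings below all EV total labellings. IP/T was 0.789 in EV-ST486 cells (0.813 and 0.765 by orientation) and 1.65 in miR-155-ST486 cells (1.62 and 1.69), a miR-155/EV ratio of 2.09 (1.99 and 2.20). The total signal differed by 1.19-fold between the vectors and the IP signal by 2.49-fold. The 2 retained probes of its coding gene ANXA2 had a median IP/T ratio of 1.51 in EV and 2.88 in miR-155 cells. With normexp correction the miR-155/EV ratio of ANXA2P1 was 1.31, and with high backgrounds replaced 1.90, both below 2.

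The other probes at the ends of the miR-155/EV order did not reach 2-fold. NR_000034 had 1.85 with orientations of 3.16 and 1.08, and NR_002802 had 1.71 with 1.23 and 2.38. In both normexp settings these ratios lay below 1, at 0.972 and 0.918 for NR_000034 and 0.992 and 0.975 for NR_002802. Both SDHAP1 probes were above 1 in each orientation, at 1.60 (1.45 and 1.76) and 1.53 (1.29 and 1.80), while their total signals differed by 0.861-fold and 0.839-fold. On the low side, the lower NR_002797 probe had 0.613 (0.474 and 0.793 by orientation) and NR_000041 0.694 (0.481 and 1.00). The lowest of 4 NR_002603 probes had 0.725 (0.608 and 0.864), and its others had 0.828, 0.848 and 0.882. The snoRNA SNORA70 had 0.727 (0.689 and 0.767) and the pseudogene PYY2 0.746 (0.597 and 0.933). With normexp correction the lowest probes, in the order named, were at 0.669, 0.887, 0.775, 0.969 and 0.871. PYY2 differed in both fractions, with normalized signals of 659.6 and 473 for EV total, 675 and 748 for EV IP, 302 and 334 for miR-155 total and 284 and 319.9 for miR-155 IP RNA. All its miR-155 labellings lay below all its EV labellings, at 0.569-fold in total and 0.424-fold in IP RNA. NR_000041 and PYY2 were among the 3 probes at least 2-fold lower in the IP fraction of miR-155-ST486 cells.

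Beside the noncoding RNAs, the mRNAs of the miRNA machinery, whose proteins process miRNAs or act with Ago2, were described on the same arrays. Of 20 probes for 13 such genes 15 were retained, with a median log2 IP/T of 1.43 in EV and 1.20 in miR-155 cells. In each vector 8 of the 15 reached an IP/T of 2, beside 12.1% (EV) and 12.2% (miR-155) of all retained probes. These 8 were probes of DROSHA, DICER1, TARBP2, TNRC6A and TNRC6B, some with several probes. The retained probes of DGCR8, XPO5, PRKRA, AGO1, AGO2, AGO3 and AGO4 were below 2 in both vectors. None of the 15 was at or below 0.5.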

How the data were processed

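Total and Ago2-IP RNA of ST486 cells with the empty or the miR-155 vector, 1 RNA sample per condition, had been hybridized to 2-colour Agilent arrays. The authors deposited intensity values extracted with Feature Extraction 10.5.1.1, background-subtracted and dye-normalized within arrays, and each of the 4 arrays is present under both of its channels, from which the channel of the sample's dye was taken. The authors also deposited log2 values, made with GeneSpring by quantile normalization and filtering, which matched the values made here within 0.05 for all 82 noncoding RNA probes they contain. The number of arrays limits the precision. The spots of a probe were averaged, signals below 1 set to 1, log2 values quantile-normalized over the 8 channels, and probes retained that were detected in 4 or more channels whose labellings of a sample never differed by over 2-fold (15529 of 41000). Ratios are between means of the labellings.

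Symbols and classes came from the RefSeq gene table through the accession (206 of 251 probes matched, no coordinates used). Sequences of miRNAs came from RefSeq. Named were MIR155HG, retained host genes, the well-known RNAs on a list, the 8 highest and 8 lowest probes by mean IP/T and the 5 highest and 5 lowest by miR-155/EV, without X-inactivation and Y-linked RNAs (28 probes). The genes compared with pseudogenes, RRN3P1 and TMED10P1 were picked out once their values were known. A pseudogene and its coding gene are not reported here. The members and lists were chosen with earlier results of these data known. Alternatives were normexp background correction (offset 50), with local backgrounds above 500 replaced or not, no quantile normalization, the deposited values, detection in all 8 channels, no detection filter, no dye filter and each dye orientation alone. The loess and Aquantile ratio of MIR155HG was added after seeing the data. The code for the ratios was checked on simulated channels built from the brighter probes, with large planted changes. Such a check covers the code and not the precision of the ratios, least of all for dim probes. Tools were limma 3.58.1 in R 4.3.3, and pandas 2.3.3 with numpy 2.4.6 and matplotlib 3.10.9 in Python 3.11.15.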

Additional observations from a re-analysis of the deposited data

Results flagged for a closer look

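ANXA2P1 was singled out because its IP/T ratio was below 1 in both dye orientations of EV-ST486 cells and above 1 in both of miR-155-ST486 cells. Its log2 miR-155/EV was 1.07. With 1 RNA sample per condition this difference between the vectors was not tested, and vector and slide cannot be told apart.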

How the results depend on the processing

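The background correction and the filters act mostly on dim probes, and the cause of the shifts below was not tested. The noncoding median log2 IP/T lay 0.19 below that of all probes for EV (difference -0.19) and 0.25 below it for miR-155 (difference -0.25). In EV-ST486 cells the difference was -0.23 with IP RNA in Cy3 alone, -0.13 without quantile normalization, -0.073 without the detection filter, -0.079 without the dye filter, -0.00089 with normexp correction and 0.022, a reversal, with high backgrounds replaced as well. In miR-155-ST486 cells it was -0.013 without the detection filter, -0.20 without the dye filter, -0.045 with normexp correction and -0.11 with high backgrounds replaced. Normexp correction also moved the median of all probes, from -0.15 to -0.028 (EV) and from -0.18 to -0.031 (miR-155), and leaving out the detection filter moved it to -0.020 in miR-155-ST486 cells. The counts that follow have different bases. Retained noncoding RNA probes numbered 109 with normexp correction, 106 with high backgrounds replaced and 74 without quantile normalization. They numbered 159 without the detection filter, 110 without the dye filter and 88 in each orientation alone. Shares over all probes in these settings are not given. Probes with an IP/T ratio of at least 2 numbered 2 in each vector with normexp correction and 4 in EV-ST486 cells with high backgrounds replaced. Those at or below 0.5 numbered 2 (EV) and 1 (miR-155) with normexp correction, 11 and 5 with high backgrounds replaced, and 7 in miR-155-ST486 cells without quantile normalization. The miR-155/EV ratio was 2 or more for 0 probes in both normexp settings and for 2 without the dye filter or with IP RNA in Cy5 alone. A ratio of at most 0.5 was found for 1 without quantile normalization, 2 in each orientation alone, 3 without the detection filter and 4 without the dye filter. No paired analysis was possible because each condition has 1 RNA sample, and no replicate could be left out.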
